A study of Mus musculus with 9 samples.

Results

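The interferon-gamma inducible GTPases measured here were 10 genes of 49671 in the deposited table, found by gene symbol. They were 5 guanylate-binding protein genes (Gbp2, Gbp3, Gbp5, Gbp7 and Gbp9) and 5 immunity-related GTPase genes (Irgm1, Irgm2, Igtp, Iigp1 and Ifi47). The table pairs 9 of them with a symbol, and Gbp5 was found by its identifier, ENSMUSG00000105504, which GENCODE M21 names Gbp5. Their messenger RNA was followed in microglia, the macrophages that reside in brain tissue, on days 7, 30 and 90 after traumatic brain injury was modelled by controlled cortical impact. There were 3 male mice per day and 1 library per mouse, 9 libraries in all.

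All 3 groups shared the same history. C57BL/6 (CD45.2) mice received 1000 cGy of irradiation to the body with the head behind lead, then busulfan at 30 mg/kg, and at 8 weeks of age were given marrow of B6.SJL-Ptprca Pepcb/BoyJ (CD45.1) donors. They were injured at 16 weeks with a 3 mm tip at 2.5 m/s to a depth of 2 mm, and CD45.2 cells were sorted from the brain. The CD45.2 gate leaves out donor-derived blood cells, but it would not leave out blood cells of the host that survived the ablation. Every group was injured, and no uninjured or sham-operated mice were analysed here, so each value is relative to another time after injury.

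Interferon-gamma, made mainly by T cells and natural killer cells, binds its receptor on macrophages and acts through the kinases JAK1 and JAK2. Its target genes carry GAS elements near their starts, and the IRF1 made in turn binds interferon-stimulated response elements (ISRE), through which type I interferon acts too. The GTPases induced in this way gather on the vacuoles of intracellular parasites and bacteria. Guanylate-binding proteins attack these membranes and the microbes inside and feed inflammasome activation, whereas in the mouse the immunity-related GTPases divide into effectors, such as Iigp1 and Ifi47, and the regulators Irgm1, Irgm2 and Igtp, which hold effectors inactive on the membranes of the cell itself.

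Between 7210985 and 12965926 reads per library were assigned to genes. Levels are in CPM, reads per 1e+06 assigned reads, and 3 reads came to 0.231 to 0.416 CPM. The microglial label was checked against 12 markers, each of which was detected in every library, and 0 of 12 passed the threshold of limma in any comparison (at an unadjusted p under 0.05, 1 was lower and 3 were higher at day 30 than at day 7, 2 lower and 2 higher at day 90 than at day 7, and 3 lower at day 90 than at day 30). Their sum was 15575 to 19491 CPM at day 7, 20501 to 21925 CPM at day 30, wholly above day 7, and 15947 to 22924 CPM at day 90. At day 30, 6 of the 12 lay wholly above day 7, beside 6.85% of all genes tested, and 1 wholly below, beside 5.74%. Most members were lower in this comparison, and the part of the marker shift in the members' values was not tested. P2ry12 averaged 933, 1291 and 1046 CPM at days 7, 30 and 90. Among the day 90 libraries, replicate 1 lay far from replicates 3 and 4 for several members. It held the highest summed level of endothelial cell and pericyte markers (4284 CPM, against 1490 to 3898 CPM in the other 8 libraries), and results that rest on it are given with and without it.

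Upstream windows from RefSeq were used for 8 of the 10 members (GRCm38.p6, 250 bases before to 50 after an annotated start, with Gbp3 having 2 starts). These windows were searched for the letters of the 2 elements through which the pathway acts, the ISRE core and the GAS motif. Gbp9 and Iigp1 were not searched, so the counts below leave them out. The ISRE core was taken as GAAA, any 2 bases and GAAA again, or on the other strand TTTC, any 2 bases and TTTC. The GAS motif was taken as TTC, any 3 bases and GAA, which reads the same on both strands. The ISRE core was found in 7 of the 8 members searched, and in 3.44% of all 32851 windows of that length. The GAS motif was found in 4 members (Gbp5, Gbp7, Igtp and Irgm2) and in 8.3% of all windows, and both motifs stood together in 0.454% of all windows. The stretches below, the 200 bases before the start, are shown because they differ in these motifs, which stand in capitals, and because Igtp and Irgm2 are near copies. They lie at chr3:142496734-142496933, chr3:142530136-142530335, chr11:58199356-58199555, chr11:58214777-58214976 and chr11:49076387-49076586 on the plus strand and at chr11:48871421-48871620 on the minus strand, each written 5′ to 3′ along its gene.
Gbp5: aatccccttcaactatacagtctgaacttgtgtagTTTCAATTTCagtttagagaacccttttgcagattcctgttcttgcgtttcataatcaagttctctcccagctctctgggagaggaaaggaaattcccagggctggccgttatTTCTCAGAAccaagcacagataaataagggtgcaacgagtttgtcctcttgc
Gbp7: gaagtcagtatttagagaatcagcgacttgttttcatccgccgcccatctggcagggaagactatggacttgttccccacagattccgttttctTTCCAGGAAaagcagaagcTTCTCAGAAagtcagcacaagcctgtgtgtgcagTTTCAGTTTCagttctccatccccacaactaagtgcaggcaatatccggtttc
Irgm1: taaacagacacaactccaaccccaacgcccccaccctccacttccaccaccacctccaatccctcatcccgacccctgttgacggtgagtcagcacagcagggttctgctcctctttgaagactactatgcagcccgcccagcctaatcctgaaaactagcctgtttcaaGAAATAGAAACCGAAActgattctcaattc
Igtp: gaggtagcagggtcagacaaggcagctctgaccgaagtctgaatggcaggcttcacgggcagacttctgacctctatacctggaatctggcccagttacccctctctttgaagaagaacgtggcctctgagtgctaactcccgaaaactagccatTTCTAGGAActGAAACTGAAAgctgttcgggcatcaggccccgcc
Irgm2: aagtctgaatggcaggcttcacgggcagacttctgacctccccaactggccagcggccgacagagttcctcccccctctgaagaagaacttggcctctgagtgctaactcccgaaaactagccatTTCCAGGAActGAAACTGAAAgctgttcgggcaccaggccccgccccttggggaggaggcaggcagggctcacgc
Ifi47: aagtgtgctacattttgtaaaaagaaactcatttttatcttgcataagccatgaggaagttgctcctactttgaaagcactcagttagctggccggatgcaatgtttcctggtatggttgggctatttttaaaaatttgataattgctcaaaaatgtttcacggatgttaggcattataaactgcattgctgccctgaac

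In Igtp the GAS match lay 45 to 37 bases before the start and the ISRE core 34 to 25 bases before it, and in Irgm2 the same order and spacing recurred at 75 to 67 and 64 to 55 bases. The Igtp and Irgm2 stretches shared 151 of 171 aligned positions (88.3%). The other pairs of the 7 stretches aligned, which include Gbp2, shared 51.4% to 60.4%. Overhanging ends were left out, and the aligned lengths of those pairs ran from 40 to 220 positions, so the percentages are not fully comparable. Irgm1 held 2 ISRE cores that overlap, and Gbp3 likewise at 1 of its starts. Gbp7 held 2 GAS matches upstream of its ISRE core, while in Gbp5 the ISRE core lay at 165 to 156 bases and GAS matches at 245 and 52 bases before the start. Neither set of letters occurred in the Ifi47 window. A match is a string of letters and not a measured binding site. Starts here are those of RefSeq. The stretches of Gbp5, Irgm1 and Irgm2 lie within the gene spans that GENCODE M21 gives.

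**Figure D1:**
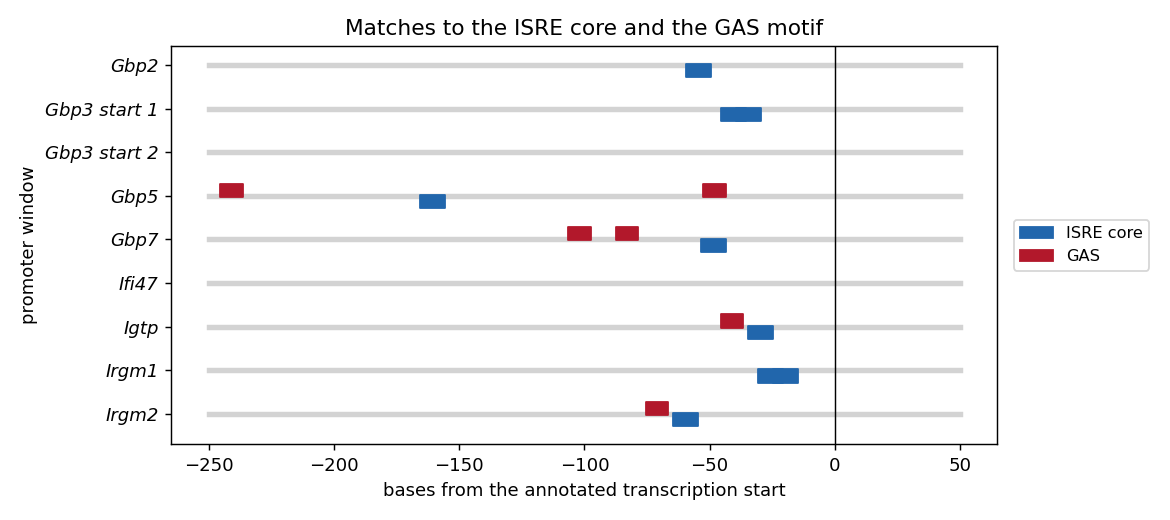
Each line is the window from 250 bases before to 50 bases after an annotated start of a member, on a linear axis in bases, with matches to the ISRE core in blue and to the GAS motif in red. ISRE matches lie within 65 bases of the start in every matching window except that of Gbp5, and the Ifi47 window holds no match.

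No member passed the threshold (adjusted p under 0.05 in limma, Benjamini-Hochberg, over all 15041 genes tested) in any of the 3 comparisons. For day 30 against day 7, edgeR and DESeq2 also called 0 of the 10, and the share called among all genes was 0% in limma, 0% in edgeR and 0.226% in DESeq2. Between day 7 and day 30, 9 of the 10 members had a negative log2 difference of CPM + 1, with a median of -0.50 beside +0.04 over all genes tested, and 46.8% of all genes were negative. Gbp9 turned positive in edgeR and DESeq2. The 3 libraries of day 30 lay wholly below the 3 of day 7 for 5 members (Gbp5, Irgm1, Irgm2, Iigp1 and Ifi47), and this held for 5.74% of all genes tested. No member lay wholly above day 7, as 6.85% of all genes did. The largest differences were those of the low-level immunity-related GTPases Ifi47, Iigp1 and Irgm1, the 3 members with an unadjusted p under 0.05, beside 6.24% of all genes. In RNA from a sorted population, fewer cells of a type and less RNA per cell cannot be told apart. The p-values measure the spread among these mice, but not that of each gene alone. In limma the spread of a gene is drawn towards that of genes of similar level (28.4 prior beside 6 residual degrees of freedom).

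Ifi47 encodes an effector of the immunity-related GTPase family (chr11:49076587-49096974 of mm10, plus strand). Its level was 16.5, 20.1 and 13.6 CPM in day 7 replicates 2, 3 and 4, and 6.40, 0.359 and 0.788 CPM in the same-numbered libraries of day 30. At day 90 it was 6.60, 5.41 and 4.82 CPM in replicates 1, 3 and 4. Every day 7 library lay above every later library, and the highest was 56.1 times the lowest. The day 30 values of replicates 3 and 4 rested on 4 and 9 reads, against 145 to 162 reads at day 7. The mean went from 16.7 ± 3.26 CPM (SD, n = 3) at day 7 to 2.52 ± 3.37 at day 30 and 5.61 ± 0.908 at day 90. The limma difference was -2.74 ± 0.83 (SE) for day 30 against day 7 (95% interval -4.42 to -1.06, adjusted p = 0.425) and -1.42 ± 0.83 for day 90 against day 7 (-3.10 to 0.26, adjusted p = 0.714).

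Iigp1, the effector that coats the vacuole of Toxoplasma in mouse cells, lies on chr18:60376027-60392634 (plus strand). It stood at 21.7, 48.5 and 15.3 CPM in the day 7 libraries in the order above, and at 0.463, 13.1 and 10.1 CPM at day 30, with no overlap. The day 90 libraries held 5.53, 2.94 and 19.0 CPM, and the last of these lay above the lowest day 7 library. The spread within each time was wide, and the value of day 30 replicate 2 came from 6 reads. The difference was -2.11 ± 0.80 at day 30 (interval -3.73 to -0.48, limma adjusted p = 0.68) and -1.72 ± 0.80 at day 90 (-3.34 to -0.09, adjusted p = 0.615), both against day 7. Without day 30 replicate 2 the day 30 difference was -1.08.

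Irgm1, a regulator that also acts in autophagy and in mitochondrial upkeep, lies on chr11:48861968-48871683 (minus strand). Day 7 libraries held 5.39, 9.29 and 12.8 CPM and day 30 libraries 1.70, 3.14 and 0.788 CPM. At day 90 the 3 mice held 0.803, 18.4 and 6.00 CPM, a range that took in all of day 7. The day 30 libraries lay wholly below day 7, whereas day 90 held both the highest library for this gene and one at the level of the lowest. The difference was -1.84 ± 0.90 at day 30 (interval -3.66 to -0.01, limma adjusted p = 0.796) and -0.63 ± 0.90 at day 90 (-2.46 to 1.20, adjusted p = 0.908) against day 7. Leaving out replicate 1 or 3 of day 90 put the day 90 value at 0.27 or -1.45. Of the 50-base words in the last 300 bases of its transcripts, 7.06% also occur in transcripts of other genes.

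Igtp (chr11:58199556-58207591) and Irgm2 (chr11:58199618-58222782) are regulators whose GENCODE M21 spans overlap on the plus strand. The RefSeq start of Irgm2, next to the stretch that ends at chr11:58214976, lies beyond the end of Igtp. In GENCODE M21 the exons of Igtp and Irgm2 share 162 bases, 8.01% of those of Igtp and 4.39% of those of Irgm2. Under that annotation reads there cannot be assigned to one of them. No 50-base word in their last 300 bases occurs in another gene, which is where a 3′ library reads. Irgm2 stood at 49.5, 50.1 and 47.2 CPM at day 7, the smallest spread, relative to the mean, of any member on any day. It was at 16.5, 47.0 and 45.5 CPM at day 30 and 56.6, 53.5 and 36.3 CPM at day 90. The day 30 group lay below day 7 by a log2 difference of -0.56 ± 0.38 in limma, or -0.080 without replicate 2, and its other 2 libraries were under 2 CPM from the lowest of day 7. Igtp was at 52.9, 70.7 and 38.5 CPM at day 7, 52.0, 33.5 and 49.7 CPM at day 30, and 89.4, 44.5 and 45.2 CPM at day 90. Its groups overlapped in all 3 comparisons, with differences of -0.24 ± 0.35 at day 30 and 0.11 ± 0.35 at day 90 against day 7 (adjusted p = 0.955 and 0.97).

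**Figure D2:**
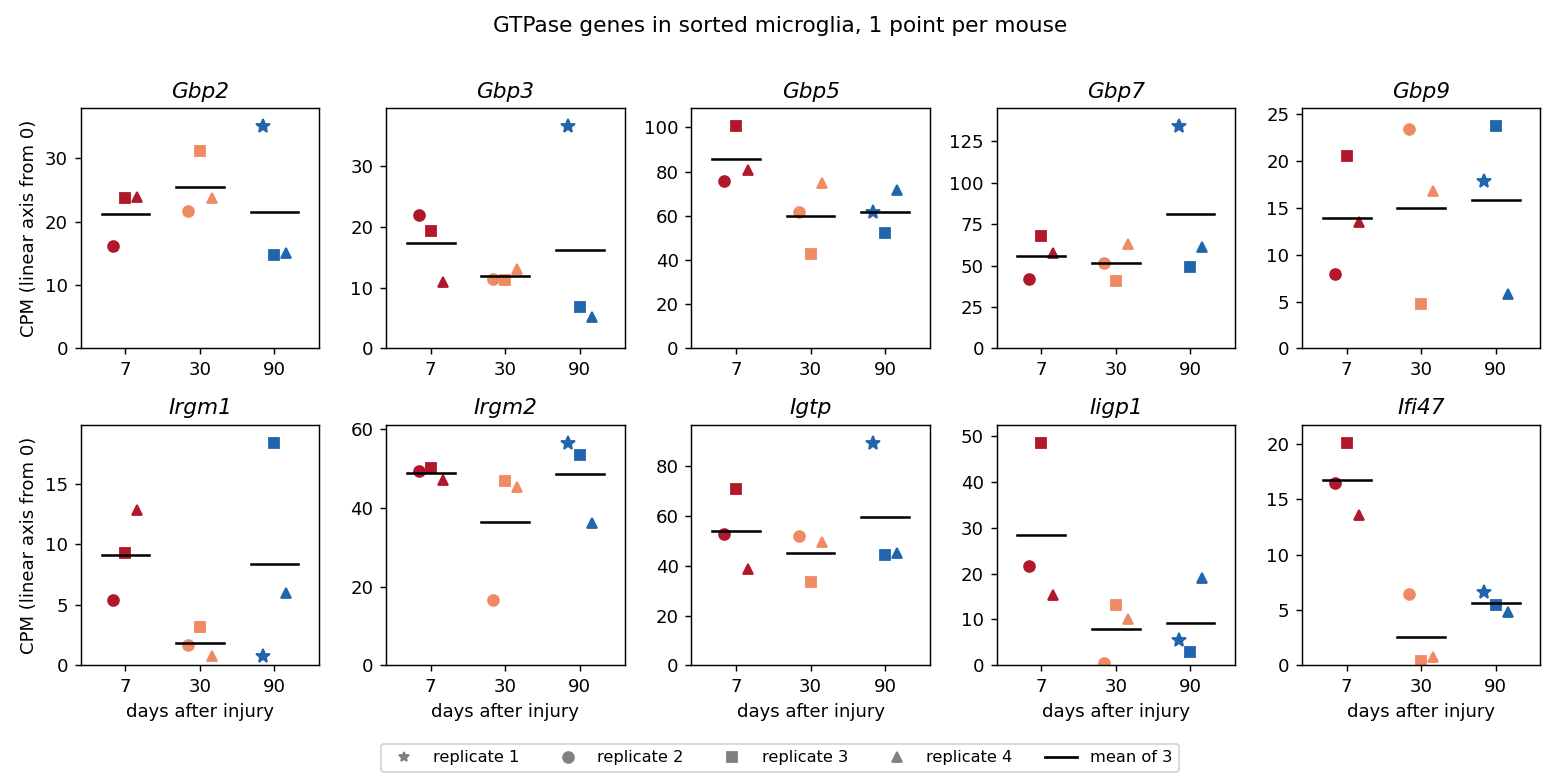
CPM of each member on a linear axis from 0 in the 3 libraries of each day, 1 point per mouse, with the mean as a bar and the replicate number as the shape. Ifi47 and Iigp1 are highest at day 7, and the star of day 90 replicate 1 is the top point for Gbp2, Gbp3, Gbp7, Irgm2 and Igtp.

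The guanylate-binding protein genes of chromosome 3 stand side by side on the plus strand, with Gbp5 at chr3:142493978-142522344, Gbp7 at chr3:142530342-142550149, Gbp3 at chr3:142560026-142573209 and Gbp2 at chr3:142620602-142638008. Gbp5, whose product promotes activation of the NLRP3 inflammasome in mouse macrophages, was the one of the 4 whose day 7 libraries lay above all later ones. It held 75.7, 101 and 80.7 CPM at day 7, 61.5, 42.7 and 75.0 CPM at day 30, and 61.6, 52.1 and 71.6 CPM at day 90. The nearest libraries of day 7 and day 30 were less than 1 CPM apart. The mean was 85.6 ± 13.1 CPM at day 7, 59.7 ± 16.2 at day 30 and 61.8 ± 9.77 at day 90 (SD, n = 3). The limma differences from day 7 were -0.54 ± 0.30 (interval -1.14 to 0.07, adjusted p = 0.82, and -0.32 without day 30 replicate 3) and -0.47 ± 0.30 (-1.07 to 0.14, adjusted p = 0.741).

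Gbp2, a lipid-anchored protein that binds parasite vacuoles, had overlapping groups throughout. It held 16.1, 23.7 and 23.9 CPM at day 7, 21.6, 31.2 and 23.7 CPM at day 30, and 35.1, 14.7 and 15.0 CPM at day 90. It was the one member with a positive difference at day 30 (0.26 ± 0.48, limma adjusted p = 0.978). Gbp7, linked in mouse macrophages to assembly of the NADPH oxidase, held 41.7, 68.0 and 57.5 CPM, then 51.8, 40.4 and 62.8 CPM, then 134, 49.1 and 61.0 CPM. Only day 90 replicate 1 left the range of the earlier days, and the difference for day 90 against day 7, 0.43 ± 0.34, was 0.0011 without it. Gbp3 held 22.0, 19.3 and 11.0 CPM, then 11.3, 11.2 and 13.1 CPM, then 36.6, 6.83 and 5.24 CPM. For Gbp3 the day 90 group held the highest library and the 2 lowest, and its difference from day 7 went from -0.53 to -1.34 without replicate 1. Of the 50-base words at the 3′ ends of Gbp3 transcripts, 5.98% also occur in Gbp7, so the levels of this pair may share a few reads.

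Gbp9 lies apart from that cluster, at chr5:105077630-105139539 on the minus strand, among Gbp4, Gbp6, Gbp8 and Gbp10. It held 7.93, 20.5 and 13.4 CPM at day 7, 23.4, 4.75 and 16.8 CPM at day 30, and 17.8, 23.7 and 5.84 CPM at day 90. The 3 groups covered nearly the same range, and the log2 differences lay between -0.05 and 0.12 with an SE of 0.66. Its 3′ ends share 6.77% of their 50-base words with other genes, Gbp6 and Gbp10 among them, and these held 6 and 0 reads over all libraries.

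For day 90 against day 7, 0 of the 10 members passed in limma, edgeR or DESeq2, and 1 (Iigp1) had an unadjusted p under 0.05, beside 7.73% of all genes. The share called among all genes was 0.246% in limma, 0.146% in edgeR and 0.858% in DESeq2. The median of the members was -0.27, beside -0.02 over all genes, and 7 of 10 differences were negative (51.6% of all genes), Gbp2 among them, which edgeR and DESeq2 put just above 0. The direction of this median rested on 1 library, since it was 0.037 without day 90 replicate 4. Gbp5 and Ifi47 lay wholly below day 7, as did 6.27% of all genes tested, and none wholly above it, as 5.4% did. The same day 7 libraries enter both comparisons with day 7.

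For day 90 against day 30, 8 of 10 differences were positive, with a median of +0.37 beside -0.06 over all genes, of which 55% were negative. None of the 10 passed in limma, edgeR or DESeq2 (0.0532%, 0.0465% and 0.18% of all genes did), none had an unadjusted p under 0.05 (5.03% did), and none had groups that did not overlap, which 6.18% of all genes did on the lower side and 3.75% on the higher. The largest were those of Ifi47 (1.33 ± 0.83) and Irgm1 (1.21 ± 0.90). Leaving out replicate 2 or 3 of day 30 put Ifi47 at 2.08 or 0.85. Leaving out replicate 1 or 3 of day 90 put Irgm1 at 2.10 or 0.39. Without day 90 replicate 1 the median was 0.086. Summed over the 10 members, the level was 309, 431 and 314 CPM at day 7, 247, 227 and 298 CPM at day 30, and 444, 271 and 270.0 CPM at day 90. By this sum day 30 lay wholly below day 7, and day 90 replicates 3 and 4 lay within the day 30 range while replicate 1 lay above every earlier library.

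**Figure D3:**
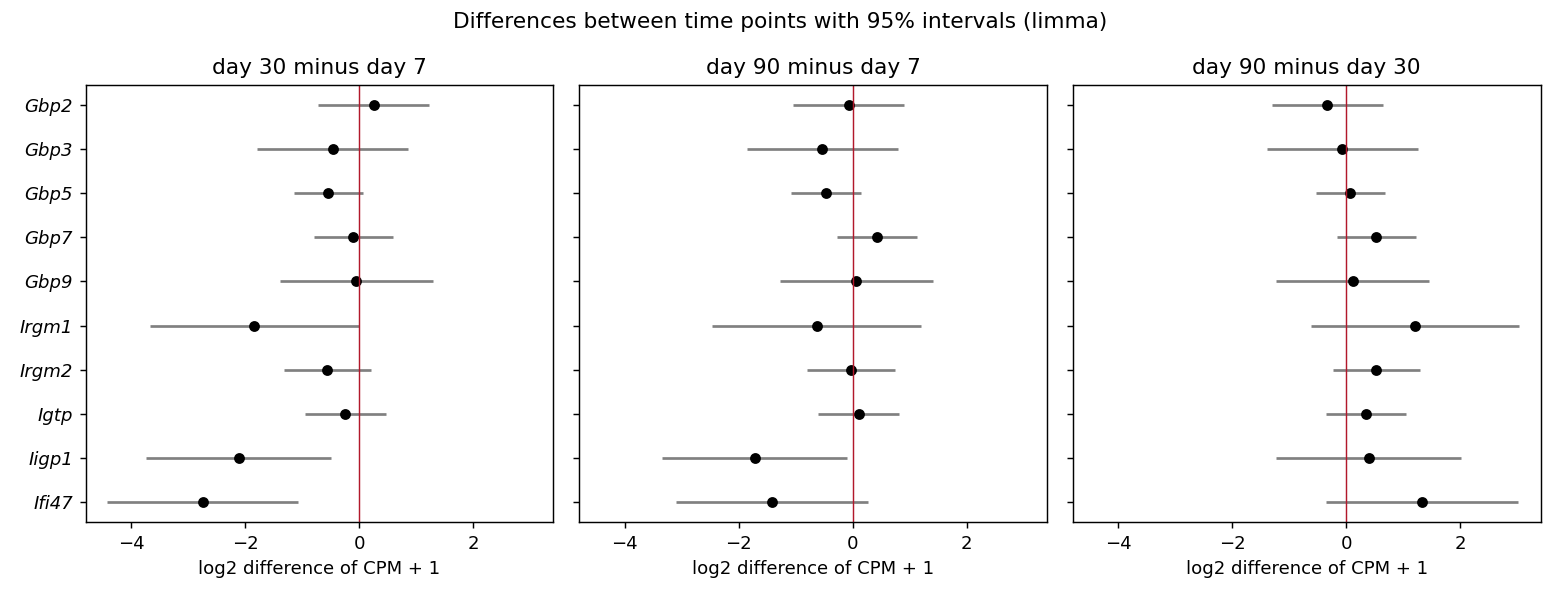
Log2 differences of CPM + 1 between time points from limma, 1 point per gene with its 95% interval, for the 3 comparisons on a common axis. The intervals of Ifi47, Iigp1 and Irgm1 lie below 0 for day 30 minus day 7, and all 10 intervals include 0 for day 90 minus day 30.

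The members did not share one pattern over the 9 libraries. Day 90 replicate 1 held the highest value of 5 members (Gbp2, Gbp3, Gbp7, Irgm2 and Igtp), day 7 replicate 3 that of 3 (Gbp5, Iigp1 and Ifi47) and day 90 replicate 3 that of the other two (Gbp9 and Irgm1). Day 30 replicate 3 held the lowest value of 5 members. Taken by the root mean square of the log2 difference between centred profiles, the closest pair was Gbp7 and Igtp (0.288), which lie on different chromosomes. Igtp was also the closest member to Gbp5 (0.403), Gbp3 (0.524) and Gbp9 (0.653). Irgm1, Iigp1 and Ifi47 stood more than 1 log2 unit from even their closest member (1.14, 1.20 and 1.09). Although Igtp and Irgm2 overlap in GENCODE M21 and have near-copy upstream stretches, the closest member to Irgm2 was Gbp5 (0.578).

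**Figure D4:**
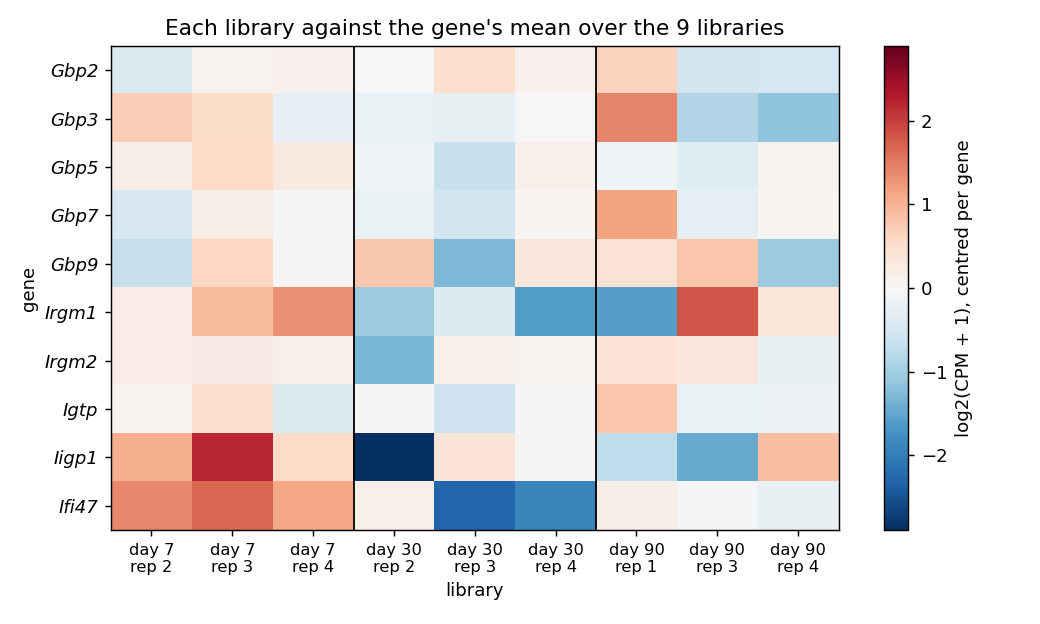
Each cell is the log2(CPM + 1) of a member in a library minus that gene's mean over the 9 libraries, on a colour scale in log2 units centred at 0. The darkest cells are in the rows of Iigp1 and Ifi47, and the day 90 replicate 1 column is red for Gbp2, Gbp3, Gbp7 and Igtp and blue for Irgm1 and Iigp1.

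Of genes that are no member, those with a profile closest to the mean of the 10 members were Arl6ip4 (root mean square difference 0.136 log2 units), BC030336 (0.170), Sipa1l3 (0.172) and Triap1 (0.175), out of 8840 with a mean of at least 10 CPM. The next 8 were 2310036O22Rik, Arfgef1, Cox4i1, Psmb8, Rpl26, Pgrmc2, 2310011J03Rik and Nedd8, at 0.178 to 0.208. The mean profile itself varied by 0.388. Among these 12, Psmb8 encodes an immunoproteasome subunit that interferon-gamma induces. It averaged 88.9 ± 10.3 CPM at day 7, 56.9 ± 6.16 at day 30 and 64.8 ± 4.39 at day 90. Its day 7 libraries lay above all later ones (limma adjusted p = 0.756 and 0.737). The immunoproteasome genes Psmb9 (37.8, 27.2 and 40.5 CPM) and Psmb10 (35.4, 28.6 and 37.9 CPM) had overlapping groups in each comparison.

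The signalling chain upstream of the members was detected in every library except for its ligand and the factor Ciita. Ifng, the ligand, had 4 reads in day 7 replicate 3 and 0 in the other 8 libraries, where 3 reads would have been 0.231 to 0.305 CPM, so it was not detectable in those 8 at this depth. The receptor chain genes Ifngr1 (285 ± 51.7, 297 ± 34.8 and 304 ± 72.1 CPM at days 7, 30 and 90) and Ifngr2 (77.0 ± 24.2, 80.1 ± 18.6 and 64.6 ± 11.0 CPM) had overlapping groups in each comparison. Jak1 averaged 249 ± 39.4, 326 ± 16.5 and 306 ± 42.6 CPM, with day 30 wholly above day 7 (limma adjusted p = 0.803), and Jak2 averaged 31.1, 32.9 and 29.8 CPM.

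Irf1, the factor that binds ISRE elements, averaged 632 ± 123, 661 ± 144 and 747 ± 144 CPM, and Irf8, a lineage factor of microglia, 1026 ± 299, 1109 ± 103 and 946 ± 213 CPM, with overlapping groups in each comparison. Ciita, the master regulator of MHC class II genes, was at 0 reads in every library. Nlrc5, its counterpart for MHC class I, averaged 12.3, 6.86 and 3.72 CPM. The inhibitors Socs1 (5.92, 10.9 and 13.4 CPM) and Ptpn2 (33.8, 22.1 and 24.8 CPM) did not pass either. Of the 13 genes of this chain, 11 were tested and 0 passed in limma in any comparison, with medians of +0.07, -0.10 and +0.01 in the 3 comparisons (2, 1 and 0 at an unadjusted p under 0.05, and 0 in edgeR and DESeq2).

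Of 18 other GTPases listed from the guanylate-binding, immunity-related and related interferon-responsive families, 7 reached the level needed for testing. Irgq and Irgc1 are in the list as family members and are not known as interferon-induced genes. All 7 had negative differences from day 7 at day 30 (median -1.71) and at day 90 (-1.45), and 0 passed in limma (3 and 2 at an unadjusted p under 0.05, and 0 in edgeR and DESeq2). Without Irgq, a choice made after seeing the data, 6 of 6 were negative with medians of -1.75 and -1.56. Mx1, a gene of the dynamin-like GTPases that type I interferon induces, held 29.5, 10.5 and 18.9 CPM at day 7. It held 2.47, 3.86 and 1.58 CPM at day 30, and 5.35, 9.30 and 2.28 CPM at day 90. Both later groups lay wholly below day 7 (limma adjusted p = 0.561 and 0.625). Mx2 averaged 26.8, 12.3 and 18.5 CPM, Gbp4 11.0, 2.47 and 7.53 CPM, Gm4951 5.76, 0.412 and 1.24 CPM, and Irgq 22.8, 19.1 and 19.1 CPM. Gm12250, another immunity-related GTPase, had 144 reads over the day 7 libraries, 22 at day 30 and 0 at day 90, at least 56.8-fold lower at day 90 than at day 7 against a floor of 3 reads over the group. All of its day 7 reads came from replicates 2 and 3, and all of its day 30 reads from replicate 2. Leaving out 1 day 7 library put the bound between 39.3 and 94.6. F830016B08Rik had 113, 47 and 0 reads, at least 44.6-fold lower by the same floor. Of its day 7 reads 92 came from replicate 4, and the bound was 13.8 without that library and 67.7 without replicate 2. Such floors cover counting error only. Gbp2b, Gbp10, Gbp11, Tgtp2 and Gvin1 had 0 reads throughout, Gbp6, Gbp8, Tgtp1, Gm4070 and Irgc1 had 1 to 29 reads in all, and Gm17757 was not analysed here.

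Values of the wider interferon programme are set beside those of the members. Among 24 other interferon-gamma targets, 20 were tested and 0 passed in limma in any comparison (at an unadjusted p under 0.05, 1 was lower and 1 higher at day 30 than at day 7, 4 lower and 1 higher at day 90 than at day 7, and 1 lower at day 90 than at day 30). In DESeq2, 0, 2 and 1 passed, and in edgeR none. Their medians were -0.31, -0.23 and +0.05. They did not go one way, and 2 genes picked after their values were seen show this. Icam1, an adhesion molecule, lay wholly higher at day 30 (322 ± 85.9 CPM at day 7, 560 ± 118 at day 30 and 468 ± 109 at day 90), by 0.81 ± 0.22 (limma adjusted p = 0.411). Cxcl10, a chemokine for T cells, was wholly lower at both later times, from 51.9 ± 4.59 CPM to 31.7 ± 5.63 and 30.3 ± 12.1 (limma adjusted p = 0.813 and 0.61). Of 28 tested type I interferon effectors, 27 had negative differences at day 30 and 27 at day 90 (46.8% and 51.6% of all genes). Their medians were -1.09 and -1.35, beside the members' -0.50 and -0.27 (the latter 0.037 without day 90 replicate 4). At day 30, 0 of the 28 passed in limma, 0 in edgeR and 2 in DESeq2. In limma 18 had an unadjusted p under 0.05 at day 30 and 20 at day 90, beside 6.24% and 7.73% of all genes. Wholly below day 7 lay 16 and 15, beside 5.74% and 6.27% of all genes. The members' medians were nearer 0 in both comparisons, and the 2 lists share day 7 libraries, so no test of the difference was made. In that list Bst2 and Lgals3bp fell between day 7 and day 90 by limma. Lgals3bp, a secreted glycoprotein that binds galectins, went from 608 ± 33.0 to 201 ± 21.4 CPM, and Bst2, which tethers virus particles, from 303 to 121 CPM (adjusted p = 4.38e-06 and 0.00488). Irf7, 1 of 8 tested type I signalling genes, fell as well (-2.38 ± 0.50, limma adjusted p = 0.0207). Without day 7 replicate 3 or day 90 replicate 3, Bst2 did not pass (-1.18 and -1.20), nor did Irf7 (-2.20 and -2.40), which also missed without replicate 4 of day 7 (-2.19) or of day 90 (-2.34).

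**Figure D5:**
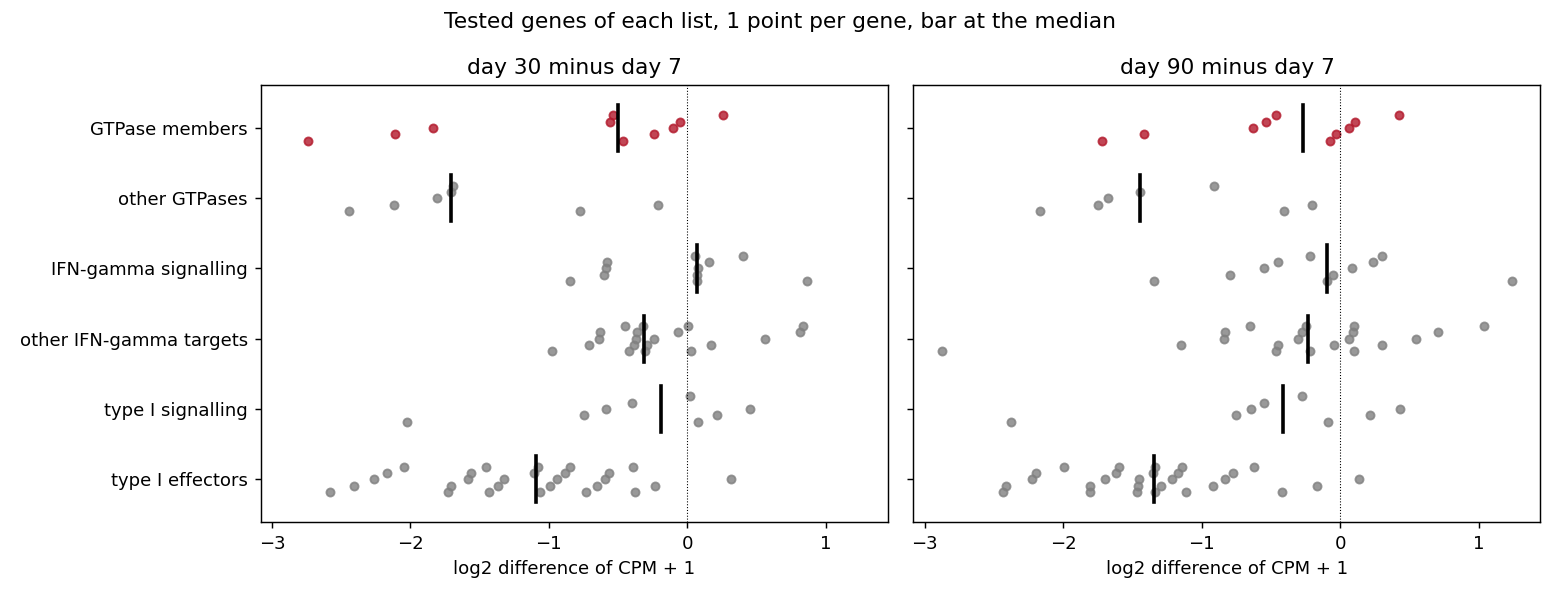
Log2 differences of CPM + 1 from day 7 to day 30 and to day 90 for the tested genes of each list, 1 point per gene, with a bar at the median of the list. The members' medians are -0.50 and -0.27, the latter 0.037 without day 90 replicate 4, and those of the type I effectors -1.09 and -1.35.

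Markers of other cells differed between days and libraries too. Monocyte markers, 9 of 9 with reads, summed to 241 to 258 CPM at day 7, 116 to 183 CPM at day 30 and 116 to 182 CPM at day 90, and most of each sum was Fn1, which other cells make too. Without Fn1, a choice made after seeing the data, the sums were 34.7 to 55.5, 19.4 to 48.0 and 19.7 to 34.9 CPM, and day 30 overlapped day 7, as did day 90. T and natural killer cell markers summed to 3.80 to 14.0 CPM at day 7, 0.463 to 7.71 CPM at day 30 and 1.44 to 13.8 CPM at day 90. Of those 15 genes 13 had any read, while Ncr1 and Prf1 were at 0 in every library and Cd3e had 1 read in all. Endothelial cell and pericyte markers summed to 2356 to 3898, 1767 to 2450 and 1490 to 4284 CPM. Day 90 replicate 1 and day 7 replicate 3, which held the most member maxima, were the 2 highest for them. The same 2 libraries were the lowest for the sum of microglial markers (15947 and 15575 CPM). All 13 endothelial cell and pericyte genes were tested, and 13 had negative differences at day 30 (median -0.51, beside the members' -0.50) and 9 at day 90 (median -0.31). Neuronal markers summed to 284 to 315 CPM at day 7, 400.0 to 623 CPM at day 30 and 248 to 442 CPM at day 90. At day 30, 11 of 11 had positive differences (median 0.67), with 5 wholly higher, beside 6.85% of all genes tested. Markers of border-associated macrophages summed to 241 to 303 CPM at day 7, 186 to 219 CPM at day 30 and 203 to 292 CPM at day 90. By this sum day 30 lay wholly below day 7. Of these 8 genes, 5 had negative and 3 positive differences at day 30 (median -0.33), and 5 negative and 3 positive at day 90 (median -0.17). The part of all these cell types in the members' levels was not tested.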

How the data were processed

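The deposited table gives CPM, which the authors made from QuantSeq 3′ reads with bcl2fastq, STAR and HTSeq on mm10, per the submitters' processing notes. Versions, annotation and strandedness were not given in the sources used here. Whole reads, recovered from each column's smallest step for 100% of values (tolerance 1e-06), gave the depths and went into edgeR 4.0.16 and DESeq2 1.42.0 as alternatives.

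The 15041 genes that reached 1 CPM in 3 or more libraries were analysed as log2(CPM + 1), which understates changes of low genes, with limma 3.58.1 in R 4.3.3 (trended eBayes, 1 mean per time point over 9 libraries). Tests were two-sided, adjusted by Benjamini-Hochberg, and were also run on simulated data. The simulation gave every gene the same setting of spread and changed only genes above a minimum level. It cannot show how the tests perform for low or highly variable members. For the 3 comparisons limma called 0, 37 and 8 genes, edgeR 0, 22 and 7, and DESeq2 34, 129 and 27. The members and lists were chosen with earlier results of these data known. Every member is named, with set pathway genes and any list gene that passed, except 1 pathway gene that is not reported here. Other alternatives were a pseudocount of 0.1 or 5 CPM, no filter, median-of-ratios scaling, a replicate block and leaving out each library. Gene spans and exons are from GENCODE M21, and upstream sequences with their starts are from RefSeq.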

Additional observations from a re-analysis of the deposited data

How the results depend on the processing

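None of the 10 GTPase genes passed the threshold in any comparison under any of the 16 alternatives, and of 480 alternative values 37 changed sign. The lowest adjusted p was 0.175, for Ifi47 at day 30 with the replicate block. The count of genes called for day 30 against day 7 was 3 with a pseudocount of 5 CPM, 34 in DESeq2, 10 with the replicate block and 0 to 8 without 1 library. For day 90 against day 7 it was 1 without a filter, 22 in edgeR, 129 in DESeq2 and 18 to 65 without 1 library, and for day 90 against day 30 it was 0 without a filter, 27 in DESeq2 and 4 to 17 without 1 library. The replicate block gave 42 and 6 genes in the last 2 comparisons. Over all genes, same-numbered libraries did not deviate together (r between -0.045 and 0.039). Such a correlation cannot show whether a shared batch moved some of the genes, and the labels name no batch.

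The median of the GTPase genes ran from -0.34 to 0.037 without 1 library for day 90 against day 7, the positive value being without day 90 replicate 4, and from 0.086 to 0.58 for day 90 against day 30, where the replicate block gave 0.030. For day 30 against day 7, Gbp9 was 0.095 in edgeR and 0.085 in DESeq2 and -0.47 to 0.57 without 1 library, and Gbp7 -0.29 to 0.06. For day 90 against day 7, Gbp2 was 0.0014 in edgeR and 0.019 in DESeq2, and the replicate block gave -0.088 for Gbp7, -0.065 for Gbp9, 0.12 for Irgm1 and -0.16 for Igtp. Leaving out 1 library gave -0.47 to 0.13 for Gbp2, -0.31 to 0.62 for Gbp9, -1.45 to 0.27 for Irgm1, -0.15 to 0.17 for Irgm2 and -0.22 to 0.32 for Igtp. For day 90 against day 30, Gbp3 was 0.025 with a pseudocount of 5 CPM, 0.42 in edgeR, 0.46 in DESeq2 and -0.88 to 0.42 without 1 library. The replicate block gave -0.014 for Gbp9 and -0.030 for Iigp1, and leaving out 1 library gave -0.50 to 0.67 for Gbp9, -0.64 to 0.99 for Iigp1 and -0.15 to 0.25 for Gbp5. The cause of these shifts was not tested. Irf7 kept its call for day 90 against day 7 in 10 of 16 alternatives, Bst2 in 13 and Lgals3bp in 16.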

Other observations

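Among the other interferon-gamma targets, the T cell chemokine Cxcl9 had 234 reads over the day 7 libraries, 121 at day 30 and 0 at day 90, at least 92.4-fold lower at day 90 than at day 7 against a floor of 3 reads over the group (limma adjusted p = 0.279). Of its day 7 reads 165 came from replicate 4, and the bound was 45.3 without that library. Cxcl9, Gm12250 and F830016B08Rik were thus at 0 reads in all day 90 libraries. These include day 90 replicate 1, in which 5 of the 10 GTPase members had their highest value. Gm12250 was also at 0 in day 7 replicate 4 and day 30 replicates 3 and 4, and F830016B08Rik in day 30 replicate 3. Neutrophil markers summed to 6.92 to 242 CPM at day 7, 4.21 to 69.1 CPM at day 30 and 1.52 to 84.3 CPM at day 90, a wide spread within each time. Cxcl9 was singled out after its values were seen.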
